A study of Homo sapiens with 9 samples.

Results

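The genes described here are those that start beyond 75 Mb on human chromosome 4 (GRCh38) and that had at least 10 reads summed over the 9 libraries of the study. They are 512 of the 1412 genes that the deposited tables list in that region, and of 23589 genes with at least 10 reads in the whole table of 56505. The region makes up most of the long arm, and the position limit leaves out the genes between it and the centromere. The first member starts at 75081702 and the last at 190041342, close to the end of the arm. Members were chosen by position and by summed counts. The arm itself was singled out with earlier results of these data known, so the values below are given as a description and no test was made over the members as a group.

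The study used RNA sequencing to compare MDA-MB-231-D3H2LN cells, a derivative of the human triple-negative breast cancer line MDA-MB-231, with and without the Notch ligand JAG1. Each of 3 groups had 3 libraries: wild-type cells that express JAG1 and a pair of JAG1 knockout clones, called clone 1 and clone 2. To make the knockouts, cells were transfected with Cas9 protein and guide RNAs directed at separate places of 1 JAG1 exon, and single cells were then grown into homozygous knockout lines. All groups were kept in high-glucose medium with 10% serum. Each clone is 1 line, so the loss of JAG1 and other differences between a single-cell line and its parent cannot be told apart within a clone. The labels do not say that the wild-type cells were cloned, and none says that libraries of a group came from separate cultures. The p-values below therefore rest on the variation among these libraries alone, and that variation may be technical.

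A chromosome arm is not a pathway: it holds genes of unrelated roles, most of them with promoters of their own, and neighbours can also share a promoter region or a chromatin domain. The long arm of chromosome 4 carries the calcineurin gene PPP3CA, the inflammatory regulator NFKB1, the lymphatic growth factor VEGFC, the Notch coactivator MAML3 and the ubiquitin ligase subunit FBXW7, which targets the Notch intracellular domain for degradation. JAG1 itself is a membrane-bound ligand that activates Notch receptors on neighbouring cells, and the released Notch intracellular domain acts in the nucleus with RBPJ and Mastermind-like coactivators such as MAML3.

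The stretches before the start sites of 6 members are shown because these members stand for the different responses found along the region and differ widely in CpG content. Letters are lower case, 5′ to 3′ on the gene's strand, and each CpG dinucleotide is in capitals. They come from the RefSeq promoter windows (GRCh38.p14), up to the first base that the counts table assigns to the gene. SEPT11 (SEPTIN11 in RefSeq) was lower in clone 1, and CYP4V2 was lower in clone 2. ANXA10 was raised in clone 1. TRIML2 was lower in clone 2, NAA11 was raised in clone 1 and had no read in clone 2, and FSTL5 had no read in either clone.
SEPT11, chr4:76949502-76949702, plus strand: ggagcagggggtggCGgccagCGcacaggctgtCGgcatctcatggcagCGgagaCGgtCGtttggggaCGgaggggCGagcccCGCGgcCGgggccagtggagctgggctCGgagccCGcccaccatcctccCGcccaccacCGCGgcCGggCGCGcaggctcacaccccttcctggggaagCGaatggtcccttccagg
CYP4V2, chr4:186191317-186191519, plus strand: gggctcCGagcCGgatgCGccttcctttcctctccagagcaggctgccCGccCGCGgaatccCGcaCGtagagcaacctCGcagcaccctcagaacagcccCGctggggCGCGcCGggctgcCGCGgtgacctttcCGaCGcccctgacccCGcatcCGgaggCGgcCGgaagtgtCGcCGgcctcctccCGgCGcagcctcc
ANXA10, chr4:168092287-168092514, plus strand: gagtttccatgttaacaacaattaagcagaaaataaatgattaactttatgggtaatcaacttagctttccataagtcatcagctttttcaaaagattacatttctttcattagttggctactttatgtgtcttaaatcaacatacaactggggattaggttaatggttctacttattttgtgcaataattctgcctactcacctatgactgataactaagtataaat
TRIML2, chr4:188109604-188109853, minus strand: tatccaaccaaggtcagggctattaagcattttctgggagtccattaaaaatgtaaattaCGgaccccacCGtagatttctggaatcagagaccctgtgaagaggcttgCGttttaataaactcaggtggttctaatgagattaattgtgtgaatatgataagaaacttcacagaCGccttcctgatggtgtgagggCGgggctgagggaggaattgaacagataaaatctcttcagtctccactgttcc
NAA11, chr4:79326062-79326311, minus strand: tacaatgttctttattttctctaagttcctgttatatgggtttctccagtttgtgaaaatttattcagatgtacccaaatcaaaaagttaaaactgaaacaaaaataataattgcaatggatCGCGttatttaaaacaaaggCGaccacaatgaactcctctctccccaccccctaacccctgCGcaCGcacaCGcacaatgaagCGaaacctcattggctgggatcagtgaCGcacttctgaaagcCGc
FSTL5, chr4:162164036-162164250, minus strand: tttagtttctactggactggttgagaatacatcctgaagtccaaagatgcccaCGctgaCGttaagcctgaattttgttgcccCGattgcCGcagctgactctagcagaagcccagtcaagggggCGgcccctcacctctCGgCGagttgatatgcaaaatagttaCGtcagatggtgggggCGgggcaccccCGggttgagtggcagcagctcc
The SEPT11 stretch holds 20 CpG in 201 bases and the CYP4V2 stretch 25 in 203 bases. The FSTL5 stretch holds 10, the NAA11 stretch 9, the TRIML2 stretch 5, and the ANXA10 stretch none (0 in 228 bases).

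Library totals ranged from 16890890 to 22456164 counts. JAG1, on chromosome 20, was at 246, 161 and 181 CPM (normalised read counts, each scaled to the size of its library with TMM factors) in wild type, at 110, 80.8 and 92.3 CPM in clone 1 and at 76.1, 68.1 and 56.5 CPM in clone 2. Its log2 fold change was -1.05 ± 0.18 (SE) in clone 1 (edgeR adjusted p = 0.00312) and -1.55 ± 0.18 in clone 2 (adjusted p = 0.00013), and its counts cover all exons, so they check the RNA level and not the edit. All 7 markers listed for the cell line (among them VIM, CD44 and EGFR) were above 10 CPM in every library, while ESR1, PGR and GATA1 summed to at most 1.45 CPM. Of 11 markers of blood, endothelium, fibroblasts and fat cells, 2 were at 0 in every library (CD3E and ADIPOQ), and the summed level was 22.5 to 42 CPM in wild type, 21.3 to 24.2 in clone 1 and 15.1 to 21.1 in clone 2, most of it COL1A1. Mitochondrial transcripts took 2.62% ± 1.01 of wild-type counts, 3.60% ± 1.31 of clone 1 counts and 1.21% ± 0.506 of clone 2 counts (SD, n = 3), and their part in the results below was not tested. Both clones were compared with the same 3 wild-type libraries, so their values are set side by side without a correlation or an overlap.

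The members took 1.88%, 1.90% and 1.90% of all counts in the wild-type libraries. In clone 1 the share was 1.77%, 1.80% and 1.81%, and in clone 2 it was 1.42%, 1.46% and 1.39%. The groups did not overlap: every clone 1 library lay below every wild-type library, and every clone 2 library lay below both. These are shares of raw totals, without TMM factors. The factors were 1.0225, 1.0598 and 0.9926 in wild type and 0.8608, 0.9841 and 0.9393 in clone 2. A lower factor goes with a lower raw share of genes in general, and its part in these shares was not taken out. The low-count filter kept 358 of the 512 members for testing. The other 154 had summed counts of 10 to 75 (median 21). Of the members tested, 281 were protein-coding, and their level in wild type had a median of 18.9 CPM over all 358.

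In clone 1 the members were not shifted the same way along the whole region. From 75 to 155 Mb, 261 tested members had a median log2 fold change of -0.26 against wild type. From 155 Mb to the end, 97 tested members had a median of 0.29. All tested genes of the genome had a median of -0.02, and the 250 tested genes of chromosome 4 below 75 Mb had a median of 0.18. The median was below 0 in 8 of 8 windows of 10 Mb from 75 to 155 Mb (-0.43 to -0.12) and above 0 in 4 of 4 windows beyond (0.13 to 0.42). With windows of 5 Mb these counts were 15 of 15 and 7 of 8. The 155 Mb boundary was set after these windows had been seen, as the end of the run of clone 1 medians below 0. The 8 of 8 therefore follows from that choice. All clone 1 values split at 155 Mb, and differences between the clones split there, reuse the same data. Read per library, 24 of 24 window medians of the 3 clone 1 libraries lay below the wild-type mean before 155 Mb, and 11 of 12 lay above it after. Wild-type libraries varied around 0, from -0.16 to 0.17 in the first stretch. The medians of whole stretches were -0.28, -0.22 and -0.22 in the 3 clone 1 libraries before 155 Mb, and 0.15, 0.31 and 0.27 after.

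**Figure D1:**
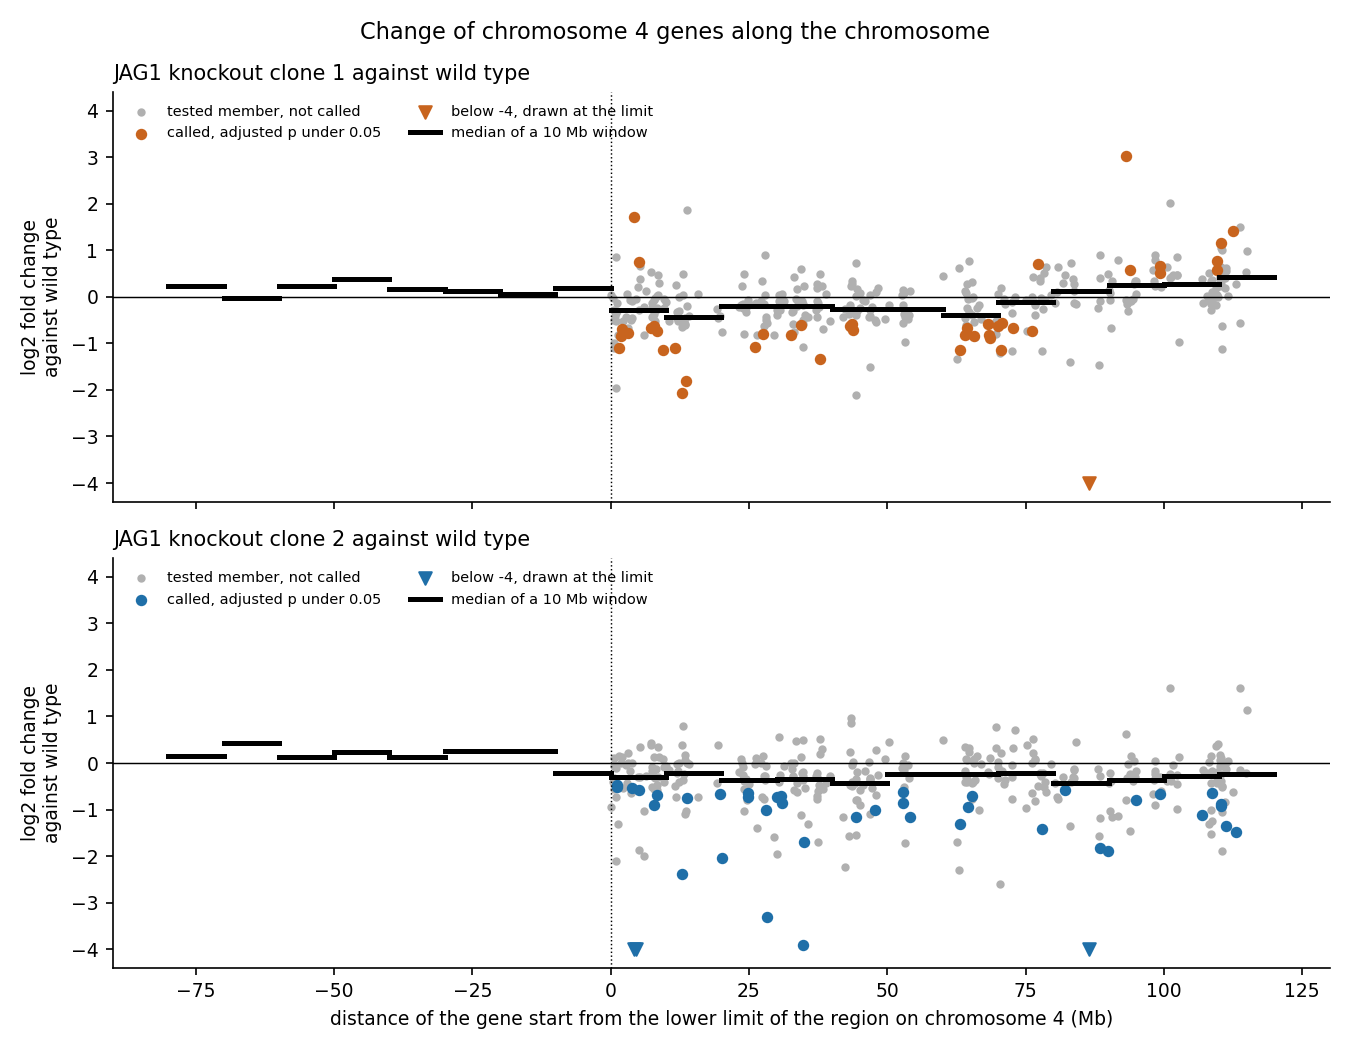
Log2 fold change of each tested member against wild type (vertical axis) by the distance of its start from the lower limit of the region (horizontal axis, Mb), for clone 1 above and clone 2 below. Coloured points are members with an adjusted p under 0.05, triangles are members below the axis limit, and black bars are medians of all tested genes in 10 Mb windows, also for chromosome 4 before the limit. In clone 1 the bars lie below 0 in the first 8 windows of the region and above 0 in the last 4, and in clone 2 they lie below 0 in all 12.

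By the test of single genes (edgeR, Benjamini-Hochberg adjustment over 16921 genes, called under 0.05), 11 members were higher in clone 1, where 1.41% of all tested genes were called higher, and 32 were lower, where 4.10% of all were called lower. Of the members called lower, 31 start before 155 Mb and 1, FSTL5, beyond it. Of those called higher, 3 start before 155 Mb (NAA11, PRDM8 and FBXW7) and 8 beyond. The number of calls depended on single libraries. It was 21 and 11 without wild-type replicates 2 and 3, and 16, 15 and 6 without clone 1 replicates 1, 2 and 3. Calls over all tested genes fell as well, from 5.51% to 2.48%, 1.57%, 2.19%, 1.88% and 1.15% in the same order. The stretch medians kept their signs in each of these fits.

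In clone 2 the median was below 0 in both stretches. The median log2 fold change was -0.32 from 75 to 155 Mb and -0.37 beyond, against 0.00 over all tested genes and 0.18 over chromosome 4 below 75 Mb. It was below 0 in 12 of 12 windows (-0.44 to -0.21), and in 36 of 36 window medians of single libraries. With windows of 5 Mb it was below 0 in 22 of 23, and the exception, at 1.13, held 1 tested gene. Of the tested members, 78.2% had a lower fitted level in clone 2 than in wild type, against 49.8% of all tested genes. The last window before the region, from 65 to 75 Mb, had a median of -0.21 in clone 2 and 0.18 in clone 1, while the 7 windows before it were above 0 in clone 2.

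No member was called higher in clone 2, where 3.21% of all tested genes were called higher, and 42 members were called lower, where 2.75% of all were. Called higher were 1 with no filter on low counts, 2 with DESeq2 and 2 with trends in GC content and length removed. Over all genes these fits called 687 of 31961, 925 of 16921 and 1066 of 14679 higher. At an unadjusted edgeR p under 0.05, 7 members were higher and 125 lower. The share of all tested genes at that limit was not computed, so these counts cannot be set against the genome. The 42 members were spread over the region, with 30 before 155 Mb and 12 beyond. Same-numbered wild-type and clone 2 libraries deviated together, and with the replicate number as a block the calls were 93. Of these, 6 were higher, where 9.03% of all tested genes were, and 87 lower, where 6.92% of all were. When only these 6 libraries entered that fit, 133 members were called. Then 11 were higher, where 15.4% of all tested genes were, and 122 lower, where 11.8% of all were. The block thus raised the calls over the whole genome as well. The count fell to 19 without wild-type replicate 1, 15 without wild-type replicate 2 and 12 without clone 2 replicate 3. Calls over all tested genes fell as well, from 5.96% to 1.69%, 1.35% and 1.34%. With trends in GC content and exon length removed, the median of the members moved to -0.19 and that of all tested genes to 0.10.

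**Figure D2:**
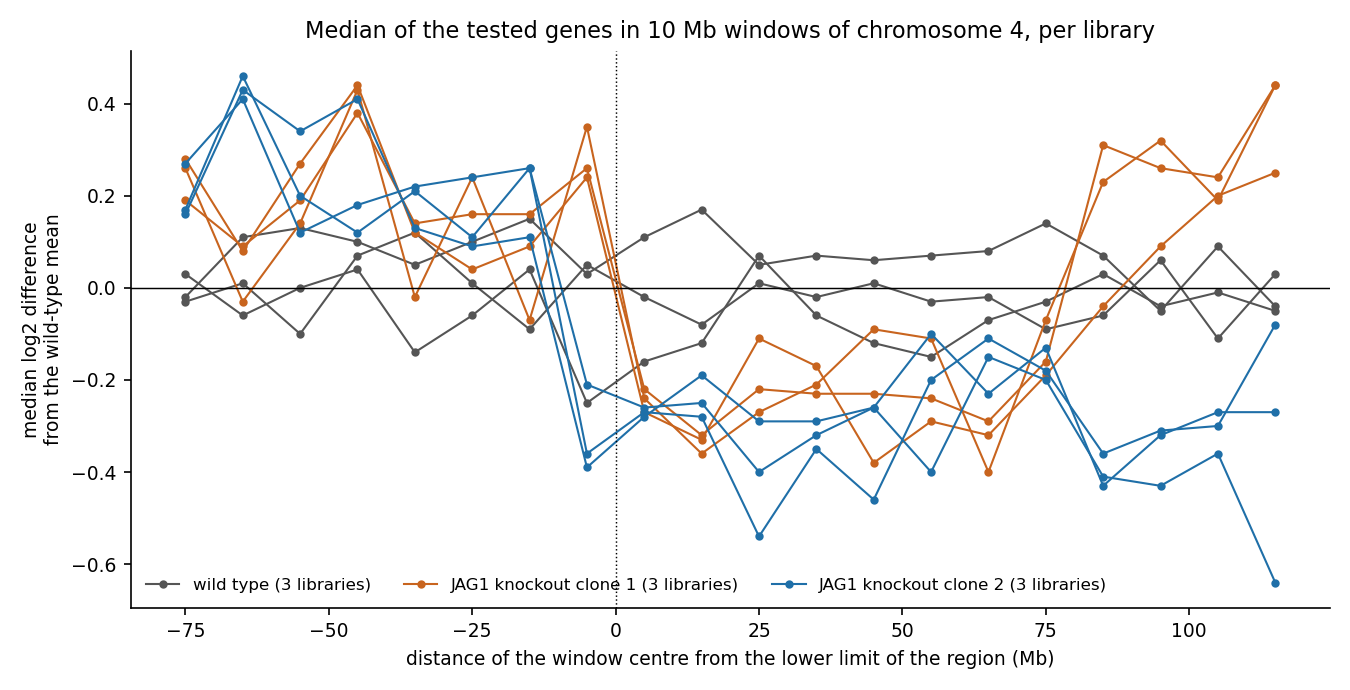
Median log2 difference of tested genes from the wild-type mean (vertical axis) in 10 Mb windows of chromosome 4 (horizontal axis, distance of the window centre from the lower limit of the region in Mb), 1 line per library. The 3 clone 2 libraries stay below 0 through the region, while the 3 clone 1 libraries run with them at first and lie above them in the last 4 windows.

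The medians of the clones lay further apart at the distal end. Between clone 2 and clone 1 the median difference was -0.13 from 75 to 155 Mb and -0.68 beyond. Before 155 Mb, 41 members were called higher and 41 lower in clone 2 than in clone 1. Beyond it, 1 was called higher and 38 of 97 lower. Over the region, 42 members were higher, where 19.8% of all tested genes were, and 79 were lower, where 14.1% of all were. With GC and length trends removed the median before 155 Mb was 0.02 and that beyond was -0.42, with 0.07 over all tested genes.

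Counting every member, tested or not, on the scale of log2(CPM + 0.5), the medians were smaller and had the same signs. They were -0.13 and 0.19 for the 2 stretches in clone 1, and -0.25 and -0.23 in clone 2. At the limits of the choice, the last genes before 75 Mb were BTC (2.47 ± 1.09 CPM in wild type, 2.02 ± 0.562 in clone 1, 0.613 ± 0.441 in clone 2) and PARM1 (28.5 ± 2.46, 24.9 ± 3.47 and 30.1 ± 12.3 CPM). The first members inside were RP11-44F21.5 (2.76 ± 1.47, 2.85 ± 1.00 and 1.43 ± 0.147 CPM) and RP11-542G1.1, which was at or below 0.889 CPM in every library. Just under the count limit lay RP11-404J23.1 and ORAOV1P1, with 9 summed counts each, and just over it RP11-429B11.2 and RP11-602N24.3, with 10 each.

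Members with the largest called changes were named only where the libraries of the compared groups did not overlap. For them, that separation is no added support for the change. A few members were lower in both clones. SLC7A11, the cystine-glutamate antiporter subunit that supplies cysteine for glutathione, was at 90.9, 79.8 and 126 CPM in wild type, at 35.6, 41.6 and 56.6 CPM in clone 1 and at 36.7, 37.3 and 46.1 CPM in clone 2. Every clone library lay below every wild-type library, and the clones overlapped each other. Its log2 fold change was -1.15 ± 0.19 in clone 1 (adjusted p = 0.00309) and -1.30 ± 0.19 in clone 2 (adjusted p = 0.00123), and both calls held when any library was left out. FSTL5, a secreted follistatin-like protein, had 289 reads over the wild-type libraries (4.42, 5.54 and 3.37 CPM) and 0 reads in all 6 clone libraries. Against a floor of 3 counts over a group it was at least 87.6-fold lower in clone 1 and at least 87-fold lower in clone 2. The gene lies beyond 155 Mb, where the other tested members of clone 1 had a median above 0.

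SPP1, which encodes the secreted phosphoprotein osteopontin, was at 2.04, 6.94 and 1.86 CPM in wild type, 0.984, 0.761 and 0.835 CPM in clone 1 and 0.680, 0.678 and 0.712 CPM in clone 2. The groups did not overlap, but wild-type replicate 2 lay far above the other two. It fell by 2.07 ± 0.51 in clone 1 and by 2.38 ± 0.52 in clone 2 on the log2 scale (adjusted p = 0.0282 and 0.0162). Both calls were lost without wild-type replicate 2, and over the left-out libraries adjusted p reached 0.252 in clone 1 and 0.188 in clone 2. HPSE, the heparan sulfate-cleaving enzyme heparanase, was at 18 ± 3.37 CPM in wild type, 10.9 ± 1.16 in clone 1 (adjusted p = 0.0385) and 11.2 ± 1.49 in clone 2 (adjusted p = 0.0466). The HPSE call in clone 1 was lost in 6 and that in clone 2 in all of the 9 fits that left out a library.

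**Figure D3:**
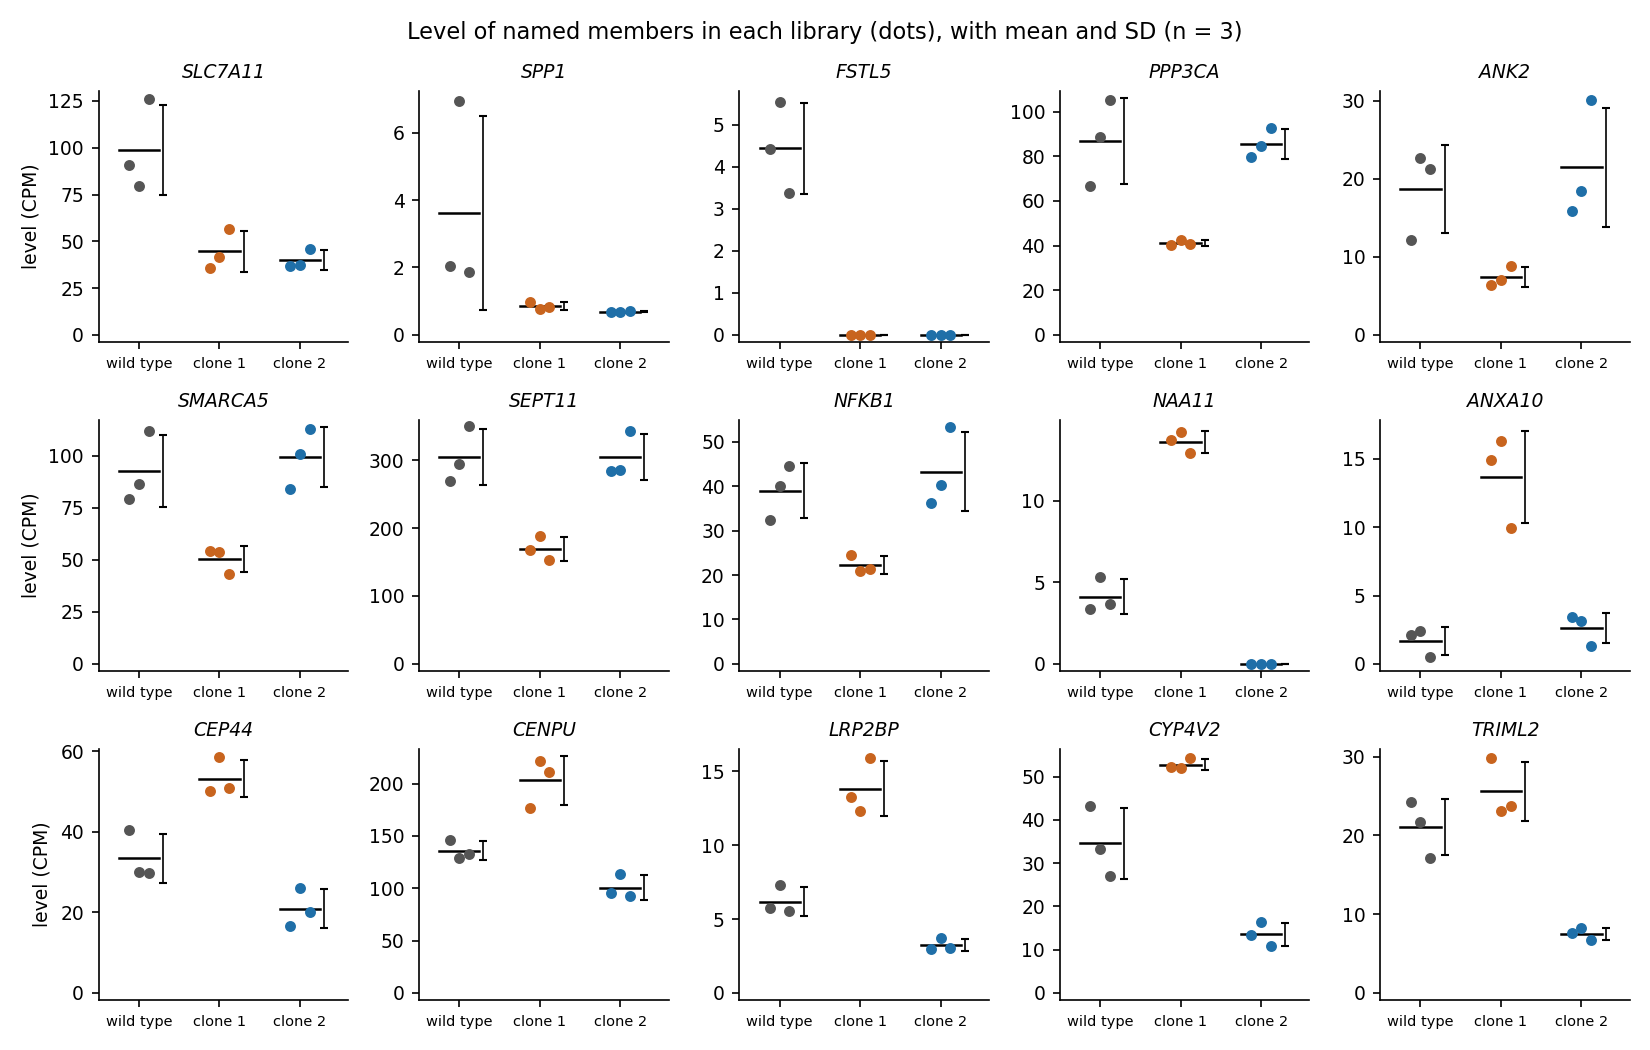
Level in CPM (vertical axis, linear from 0) of 15 named members in each library (dots), with the mean as a line and the SD as a bar (n = 3), for wild type, clone 1 and clone 2. In the first 8 panels the clone 1 libraries lie below the wild-type libraries, and in the last 7, from NAA11 to TRIML2, the clone 2 libraries lie below the clone 1 libraries. For members named by the size of their change, lack of overlap between the compared groups was a condition of naming.

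Among the members lower in clone 1 and not called in clone 2 was PPP3CA. PPP3CA, the catalytic subunit of the calcium-dependent phosphatase calcineurin, was at 66.5, 88.8 and 105 CPM in wild type, 40.2, 42.6 and 40.6 CPM in clone 1 and 79.5, 84.4 and 92.7 CPM in clone 2. All clone 1 libraries were lower than all others, and the clone 2 libraries lay within the wild-type range. Its log2 fold change in clone 1 was -1.07 ± 0.16 (adjusted p = 0.00101), which held without any library, and clone 2 exceeded clone 1 by 1.06 ± 0.16 (adjusted p = 0.000213). The membrane-cytoskeleton linker ANK2 was at 18.7 ± 5.62 CPM in wild type, 7.42 ± 1.23 in clone 1 (log2 fold change -1.33 ± 0.27, adjusted p = 0.0109) and 21.4 ± 7.62 in clone 2. SHROOM3, an actin-binding protein of apical constriction, was at 27.6 ± 9.72, 13 ± 2.12 and 30.4 ± 8.33 CPM in the same order (adjusted p = 0.0263 in clone 1).

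The chromatin remodelling ATPase SMARCA5 was at 79.1, 86.4 and 112 CPM in wild type, 54.2, 53.6 and 43.0 in clone 1 and 84.1, 101 and 113 in clone 2. SEPT11, a septin filament protein, was at 269, 294 and 350 CPM in wild type, 167, 188 and 153 in clone 1 and 284, 286 and 343 in clone 2. Both had clone 1 libraries below all other libraries (log2 fold changes -0.88 ± 0.16 and -0.84 ± 0.16, adjusted p = 0.00644 and 0.0061), and both calls were lost without clone 1 replicate 3 (adjusted p = 0.0543 and 0.0534). SMAD1, the transducer of BMP receptor signals, was at 6.75 ± 0.205 CPM in wild type and 3.03 ± 0.716 in clone 1 (adjusted p = 0.0198), with 5.94 ± 0.762 in clone 2. NKX6-1, a homeobox transcription factor, PTPN13, a tyrosine phosphatase, and TBC1D9, a Rab GTPase-activating protein, fell in clone 1 by 1.14 ± 0.30, 1.10 ± 0.30 and 0.84 ± 0.20 on the log2 scale (adjusted p = 0.0351, 0.0425 and 0.0257). Each of these 4 calls was lost in 4 to 6 of the 9 fits without 1 library, with largest adjusted p of 0.113 to 0.18. Those of SMAD1, NKX6-1, SHROOM3, PTPN13 and TBC1D9 were lost without wild-type replicate 3 or clone 1 replicate 3, and that of ANK2 without wild-type replicate 3 or clone 1 replicate 2 (adjusted p up to 0.0689).

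Members raised in clone 1 were led by ANXA10, a calcium- and phospholipid-binding annexin. It was at 2.14, 2.37 and 0.503 CPM in wild type, 14.9, 16.3 and 9.91 CPM in clone 1 and 3.40, 3.10 and 1.33 CPM in clone 2. All clone 1 libraries were far above the rest (log2 fold change 3.02 ± 0.45, adjusted p = 0.00166). NAA11, an N-terminal acetyltransferase and close paralog of NAA10, was at 3.35, 5.33 and 3.67 CPM in wild type and at 13.7, 14.2 and 12.9 CPM in clone 1 (log2 fold change 1.72 ± 0.26, adjusted p = 0.00227), while clone 2 had 0 reads. With 268 reads over the wild-type libraries and 795 over those of clone 1, clone 2 was at least 80.7-fold below wild type and at least 263-fold below clone 1. Its neighbour LINC00989, a non-coding gene singled out after its values were seen, had 184 reads in wild type, 160 in clone 1 and also 0 in clone 2, at least 55.4-fold below wild type. The calls of ANXA10 and NAA11 held without any library.

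PRDM8, a PR-domain transcriptional regulator, was at 47.7, 48.2 and 46.5 CPM in wild type, 71.6, 74.9 and 93.7 in clone 1 and 27.9, 37.5 and 30.5 in clone 2. The groups did not overlap, with clone 1 highest and clone 2 lowest. It rose by 0.75 ± 0.15 in clone 1 (adjusted p = 0.00966) and fell by 0.57 ± 0.15 in clone 2 (adjusted p = 0.0377). LRP2BP, which binds the endocytic receptor megalin, was at 5.73, 7.28 and 5.53 CPM in wild type, 13.3, 12.3 and 15.9 in clone 1 (log2 fold change 1.16 ± 0.22, adjusted p = 0.00729) and 2.97, 3.73 and 3.04 in clone 2 (-0.93 ± 0.23, adjusted p = 0.0297). CEP44, a centrosomal protein, showed the same order: 40.5, 30.1 and 29.7 CPM in wild type, 50.1, 58.6 and 51.0 in clone 1 and 16.6, 26.1 and 20.0 in clone 2. Its changes were 0.67 ± 0.18 and -0.67 ± 0.18 (adjusted p = 0.038 and 0.0385). In each of these 3 genes clone 1 and clone 2 moved to opposite sides of wild type. PRDM8 lost its call in clone 1 without clone 1 replicate 3 (adjusted p = 0.0818), as did LRP2BP (0.0647), and CEP44 lost it in 5 of the 9 fits. The clone 2 calls of PRDM8, LRP2BP and CEP44 were lost in 5, 4 and 6 of those fits (adjusted p up to 0.152, 0.137 and 0.181), among them those without wild-type replicates 1 or 2 and without clone 2 replicate 3.

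Of the members that fell in clone 2, CYP4V2 and TRIML2 lie beyond 155 Mb, and UNC5C and C4orf33 before it. CYP4V2, a fatty acid hydroxylase, was at 43.3, 33.3 and 27.0 CPM in wild type, 52.1, 51.9 and 54.3 in clone 1 and 13.3, 16.3 and 10.9 in clone 2. Its groups did not overlap, and the log2 fold change in clone 2 was -1.36 ± 0.19 (adjusted p = 0.000618). In clone 1 it was 0.61 ± 0.18 (adjusted p = 0.0583), short of the threshold. TRIML2, a relative of tripartite motif proteins, was at 24.2, 21.7 and 17.2 CPM in wild type, 29.9, 23.1 and 23.8 in clone 1 and 7.55, 8.28 and 6.74 in clone 2. Only the clone 2 libraries stood apart, with a log2 fold change of -1.49 ± 0.19 (adjusted p = 0.00029). UNC5C, a receptor for the guidance cue netrin, was at 6.90, 11.1 and 9.45 CPM in wild type, 3.63, 6.37 and 6.24 in clone 1 and 1.36, 3.15 and 2.09 in clone 2 (log2 fold change -2.04 ± 0.33, adjusted p = 0.00241). C4orf33 fell by 1.17 ± 0.20 on the log2 scale (14.4 ± 1.52 to 6.41 ± 1.31 CPM, adjusted p = 0.00411). These 4 calls in clone 2 held without any library.

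Further members that fell in clone 2 held less firmly. BBS12, a chaperonin-like protein needed to assemble the ciliary BBSome, went from 10.6 ± 0.550 to 5.27 ± 0.961 CPM (adjusted p = 0.0214), and BDH2, a hydroxybutyrate dehydrogenase, from 9.01 ± 0.945 to 4.48 ± 1.15 CPM (adjusted p = 0.0271). MGST2, a microsomal glutathione transferase, went from 17.9 ± 1.97 to 9.26 ± 2.05 CPM (adjusted p = 0.0135), and FHDC1, a formin, from 6.55 ± 2.16 to 2.43 ± 1.39 CPM (adjusted p = 0.0456). Each lost its call without wild-type replicate 2 and without clone 2 replicate 3, with largest adjusted p of 0.0991, 0.144, 0.0721 and 0.21. In clone 1 these 4 genes were at 7.56 ± 1.79, 6.43 ± 0.670, 17.4 ± 2.95 and 2.92 ± 1.03 CPM and were not called.

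The role lists below are to be read against the whole region, in which 3.07% of tested members were called higher and 8.94% lower in clone 1, with a median of -0.14. In clone 2 none was called higher and 11.7% lower, with a median of -0.32. Over all tested genes, clone 1 had 1.41% called higher and 4.10% lower with a median of -0.02, and clone 2 had 3.21% higher and 2.75% lower with a median of 0.00. With the replicate block 9.03% of all tested genes were higher and 6.92% lower in clone 2. In the region, 6 of the 358 tested members were then higher and 87 lower. The lists are small, and none was tested as a group or is set apart from the other members by these counts.

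Secreted growth factors, cytokines and their antagonists counted 11 tested members of 15. In clone 1, 1 was lower (SPP1) and the median log2 fold change was -0.10. In clone 2, 2 were lower (SPP1 and EGF) and the median was -0.38. EGF, the ligand of the epidermal growth factor receptor, was at 2.48, 4.82 and 4.93 CPM in wild type, 3.78, 4.75 and 5.90 in clone 1 and 1.55, 1.16 and 1.09 in clone 2. Its clone 2 libraries lay below all others (log2 fold change -1.69 ± 0.36, adjusted p = 0.0133), and leaving out wild-type replicate 2 or clone 2 replicate 3 ended the call (adjusted p up to 0.0688). HHIP, a decoy that binds hedgehog ligands, was at 43.4, 19.5 and 29.3 CPM in wild type, 21.3, 15.1 and 16.8 in clone 1 and 64.8, 42.3 and 50.9 in clone 2. The wild-type libraries overlapped both clones, and clone 2 exceeded clone 1 by 1.57 ± 0.25 on the log2 scale (adjusted p = 0.00047). Against wild type, HHIP was at 0.78 ± 0.25 in clone 2 (adjusted p = 0.073), or 0.82 with the replicate block (adjusted p = 0.000356).

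VEGFC, which drives the growth of lymphatic vessels, was at 41.2, 35.9 and 49.7 CPM in wild type, 62.0, 57.5 and 56.0 in clone 1 and 42.2, 39.4 and 41.9 in clone 2. The clone 1 libraries were above all others, with a log2 difference of 0.47 ± 0.14 from wild type that missed the threshold (adjusted p = 0.0664). Clone 2 lay within the wild-type range (-0.04 ± 0.14, adjusted p = 0.901) and below clone 1 by 0.51 ± 0.14 (adjusted p = 0.0128), or with an adjusted p of 0.051 without clone 1 replicate 1.

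Receptors and signalling adaptors counted 21 tested members, with 3 lower in clone 1 and 2 lower in clone 2 (4 lower and 2 higher with the replicate block). Their medians were -0.42 and -0.37. GAB1, a docking protein of receptor tyrosine kinases, went from 8.38 ± 0.793 to 4.79 ± 0.289 CPM in clone 1 (adjusted p = 0.0425), a call lost in 7 of the 9 fits without 1 library, and was at 7.13 ± 0.669 CPM in clone 2. MAML3, which binds the Notch intracellular domain on DNA, was at 8.16, 10.2 and 9.65 CPM in wild type, 6.99, 8.32 and 7.13 in clone 1 and 10.6, 10.4 and 12.0 in clone 2. It was not called against wild type in either clone (adjusted p = 0.364 and 0.497). Clone 2 exceeded clone 1 by 0.56 ± 0.20 (adjusted p = 0.0414), which held in 1 of the 9 fits without 1 library and reached an adjusted p of 0.169.

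**Figure D4:**
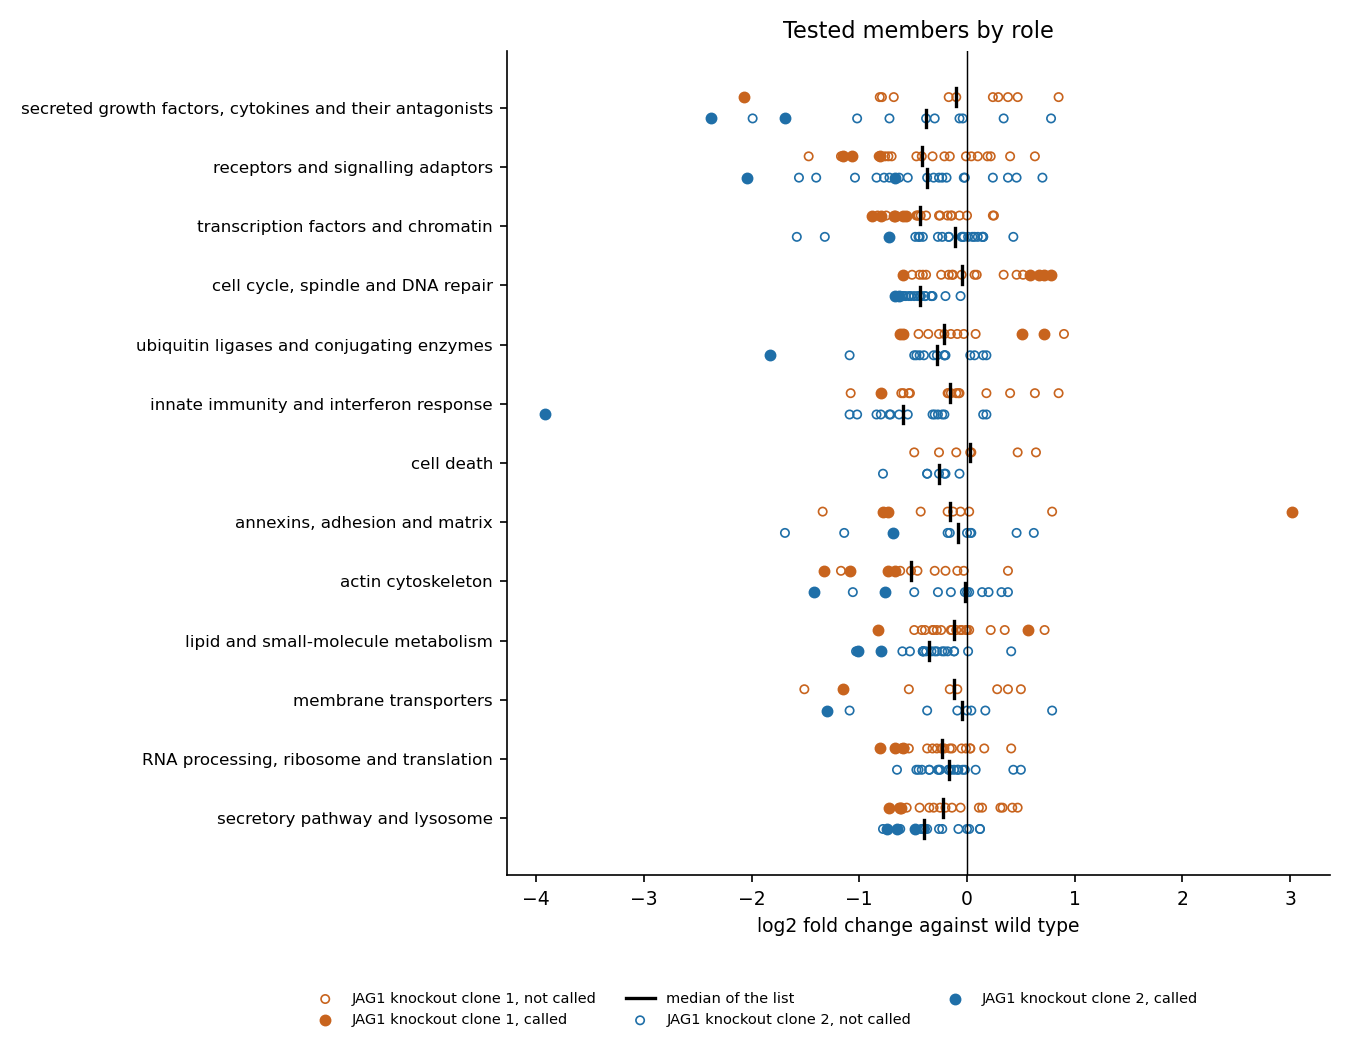
Log2 fold change against wild type (horizontal axis) of each tested member of 13 role lists (rows), for clone 1 and clone 2. Filled points passed the test, open points did not, and black ticks are the medians of a list. Clone 2 points of the cell cycle and cell death lists all lie below 0, while the clone 1 points of both lists lie on both sides.

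Transcription factors and chromatin proteins counted 22 tested members. In clone 1, 6 were lower and none higher, with a median of -0.44. Of all tested members before 155 Mb, 11.9% were lower in clone 1 and the median was -0.26. In clone 2, 1 was lower and the median was -0.11 (5 lower and 1 higher with the replicate block). NFKB1, the precursor of the p50 subunit of NF-kappa-B, was at 32.3, 40 and 44.6 CPM in wild type, 24.6, 20.9 and 21.4 in clone 1 and 36.3, 40.2 and 53.4 in clone 2. Its clone 1 libraries lay below all others (log2 fold change -0.80 ± 0.17, adjusted p = 0.015, lost in 4 of the 9 fits without 1 library). The lysine methyltransferase SETD7 went from 132 ± 22.4 to 82.6 ± 10.8 CPM in clone 1 (adjusted p = 0.0223). HNRNPD, which binds AU-rich elements in mRNA, went from 282 ± 52.5 to 178 ± 19.1 CPM in clone 1 (adjusted p = 0.0317). In clone 2 HNRNPD was at 380 ± 52.5 CPM, 0.43 ± 0.17 above wild type on the log2 scale (adjusted p = 0.135, or 0.0388 with the replicate block). The calls of SETD7 and HNRNPD in clone 1 were lost in 3 and 5 of the 9 fits without 1 library (adjusted p up to 0.135 and 0.187), both of them without wild-type replicate 3.

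Of the genes of the cell cycle, the spindle and DNA repair, all 19 listed members were tested, with log2 fold changes from -0.67 to -0.06 in clone 2 and a median of -0.44. By the test, 2 of them were lower in clone 2, and 11 with the replicate block. In clone 1, 4 were higher and 1 lower, with a median of -0.05. Between the clones, 9 were lower in clone 2 and none higher. Over all tested members, 78.2% lay below 0 in clone 2, and 22.1% were lower and 11.7% higher in clone 2 than in clone 1. CENPU, a kinetochore protein, was at 146, 129 and 133 CPM in wild type, 177, 222 and 211 in clone 1 and 95.3, 114 and 92.8 in clone 2. No groups overlapped, with a rise of 0.58 ± 0.14 in clone 1 (adjusted p = 0.0281, lost in 4 of the 9 fits without 1 library) and a difference of -0.43 ± 0.14 in clone 2 (adjusted p = 0.0818, or 0.0278 with the block).

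PRIMPOL, a primase-polymerase that restarts stalled replication forks, was at 15.3, 15.7 and 16.7 CPM in wild type, 27.0, 28.1 and 26.6 in clone 1 and 9.71, 14.3 and 12.4 in clone 2. The groups did not overlap, and it rose in clone 1 by 0.78 ± 0.17 (adjusted p = 0.0157, lost in 5 of the 9 fits without 1 library). PLK4, the kinase that starts centriole duplication, was at 70.0, 66.6 and 65.5 CPM in wild type, 52.4, 58.4 and 68.3 in clone 1 and 40.9, 47.5 and 42.1 in clone 2. It fell in clone 2 by 0.63 ± 0.14 (adjusted p = 0.0163, up to 0.0801 without 1 library). CCNA2, cyclin A2, was at 292 ± 37.5, 219 ± 35.2 and 232 ± 33.4 CPM in wild type, clone 1 and clone 2 and was not called in either clone (adjusted p = 0.157 and 0.235).

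Ubiquitin ligases and related enzymes counted 15 tested members, with 2 higher and 2 lower in clone 1 and 1 lower in clone 2 (6 lower with the replicate block). FBXW7 was at 17.2, 19.4 and 21.3 CPM in wild type, 31.6, 27.3 and 35.5 in clone 1 and 12.4, 16.2 and 12.6 in clone 2. The groups did not overlap. It rose in clone 1 by 0.71 ± 0.17 (adjusted p = 0.0258), lay 0.49 ± 0.17 below wild type in clone 2 (adjusted p = 0.0966, or 0.0432 with the block) and differed between the clones (adjusted p = 0.000164). The rise in clone 1 was lost in 5 of the 9 fits without 1 library. MARCH1, a membrane-bound ligase that downregulates MHC class II, was at 3.89, 2.54 and 2.26 CPM in wild type, 7.56, 4.47 and 4.18 in clone 1 and 0.742, 0.823 and 0.854 in clone 2 (log2 fold change -1.83 ± 0.38 in clone 2, adjusted p = 0.0118, or 0.0654 without wild-type replicate 1). FBXO8, an F-box protein, rose in clone 1 from 39.4 ± 3.93 to 56.2 ± 7.79 CPM (adjusted p = 0.0476, lost in 7 of the 9 fits). The deubiquitinases OTUD4 and USP38 fell in clone 1 by 0.62 ± 0.16 and 0.59 ± 0.15 (adjusted p = 0.0317 and 0.0339), calls lost in 4 and 5 of those fits.

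Innate immunity and interferon genes counted 16 tested members, with 1 lower in each clone (4 lower in clone 2 with the block) and medians of -0.16 and -0.59. HERC6, an interferon-induced ligase-like protein, was at 6.62 ± 0.422, 4.40 ± 1.5 and 3.11 ± 0.976 CPM in wild type, clone 1 and clone 2 (adjusted p = 0.286 and 0.0535, or 0.0133 in clone 2 with the block). HERC5, the ligase that attaches the ubiquitin-like protein ISG15, was at 27.3 ± 4.99, 17.8 ± 3.50 and 30.8 ± 3.23 CPM and was higher in clone 2 than in clone 1 by 0.79 ± 0.18 (adjusted p = 0.00387). CFI, complement factor I, was at or below 2.24 CPM in every library and was called lower in clone 2 (adjusted p = 0.0482), although wild type and clone 2 overlapped and the call held in 1 of the 9 fits without 1 library. Of 7 cell death genes none was called in either clone, and 3 were lower in clone 2 than in clone 1.

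Matrix, adhesion and annexin genes counted 10 tested members, with 1 higher (ANXA10) and 2 lower in clone 1 and 1 lower (HPSE) in clone 2. FRAS1, a protein of the epithelial basement membrane, went from 17.9 ± 2.53 to 10.5 ± 3.09 CPM in clone 1 (adjusted p = 0.0448, lost in 6 of the 9 fits without 1 library) and was at 17.9 ± 1.39 in clone 2. ANXA5, the phosphatidylserine-binding annexin, was at 647 ± 56.0, 482 ± 48.1 and 661 ± 64.0 CPM and was not called against wild type (adjusted p = 0.129 and 0.93). Actin cytoskeleton genes counted 13 tested members, with 4 lower in clone 1 (median -0.52) and 2 lower in clone 2 (median -0.02, 4 lower with the block). SH3D19, an adaptor with SH3 domains, went from 36 ± 3.71 to 21.7 ± 0.317 CPM in clone 1 (adjusted p = 0.00966, up to 0.069 without 1 library) and was at 36 ± 3.93 in clone 2. FAM13A went from 22.3 ± 1.11 to 13.1 ± 2.69 CPM in clone 2 (adjusted p = 0.0185, or 0.0818 without wild-type replicate 2).

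Lipid and small-molecule metabolism counted 20 tested members, with 1 higher and 1 lower in clone 1 and 2 lower in clone 2 (6 with the block). PAPSS1, which makes the sulfate donor PAPS, went from 39.7 ± 7.88 to 22.2 ± 2.38 CPM in clone 1 (adjusted p = 0.0108, up to 0.0852 without 1 library) and was at 39.8 ± 5.58 in clone 2. CBR4, a reductase of mitochondrial fatty acid synthesis, rose in clone 1 from 19.4 ± 0.789 to 28.7 ± 0.595 CPM (adjusted p = 0.0401, lost in 6 of the 9 fits without 1 library and with GC and length trends removed, adjusted p = 0.0527). AADAT, an aminotransferase of the kynurenine pathway, fell in clone 2 from 14.4 ± 2.33 to 8.26 ± 1.31 CPM (adjusted p = 0.0339, lost in 4 of those fits). Of 8 membrane transporters, SLC7A11 was lower in both clones. ABCG2, a drug efflux pump, was at 5.89 ± 1.53, 8.34 ± 1.59 and 10.2 ± 2.14 CPM (adjusted p = 0.262 and 0.0725, or 0.0133 in clone 2 with the block).

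RNA processing and translation counted 20 tested members, with 3 lower in clone 1 and none in clone 2 (2 lower and 2 higher with the block). METTL14, a subunit of the m6A RNA methyltransferase, went from 25.9 ± 1.88 to 17.2 ± 2.22 CPM in clone 1 (adjusted p = 0.0402), and NOCT, the circadian protein nocturnin, from 21.6 ± 4.40 to 12.2 ± 3.34 (adjusted p = 0.0386). Both calls were lost without clone 1 replicate 3 or wild-type replicate 3 (adjusted p up to 0.191 and 0.211). Secretory pathway and lysosome genes counted 18 tested members, with 3 lower in each clone (7 lower in clone 2 with the block). In clone 1 they were coat proteins of COPII vesicles, among them SEC31A (171 ± 32.6 to 111 ± 8.80 CPM, adjusted p = 0.0286) and SEC24D (55.5 ± 11.6 to 33.8 ± 4.35 CPM, adjusted p = 0.0279). In clone 2 they included LAMTOR3, a subunit of the lysosomal Ragulator complex (51.4 ± 7.14 to 30.8 ± 6.78 CPM, adjusted p = 0.0216), and DNAJB14, a chaperone partner in the endoplasmic reticulum membrane (55.5 ± 0.528 to 35.3 ± 4.14 CPM, adjusted p = 0.0116). Each of these 4 calls was lost without at least 1 library, with adjusted p up to 0.182, 0.187, 0.108 and 0.0545.

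Among the members of highest level per kilobase in wild type, RPS3A, H2AFZ, OSTC and RPL34 were not called against wild type in either clone. RPS3A, a protein of the small ribosomal subunit, was highest at 2392, 2355 and 2013 CPM in wild type, 2223, 2228 and 2243 in clone 1 and 1905, 1379 and 1028 in clone 2. Its clone 2 libraries lay below all others (log2 difference -0.65 ± 0.21, adjusted p = 0.078, or 0.0143 with the block) and varied more than those of clone 1. H2AFZ, the histone variant H2A.Z, was at 739 ± 82.8, 664 ± 56.0 and 542 ± 113 CPM (adjusted p = 0.139 in clone 2, or 0.0403 with the block). OSTC, a subunit of the oligosaccharyltransferase, was at 214 ± 25.4, 186 ± 19.4 and 139 ± 53.5 CPM (adjusted p = 0.0964 in clone 2, or 0.00562 with the block), and the large-subunit protein RPL34 was at 693 ± 58.2, 774 ± 161 and 518 ± 192 CPM.

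Promoter windows (250 bases before the RefSeq start) were matched for 303 of the 512 members. Of these, 102 had several windows, and the one furthest upstream was used. Over 247 tested protein-coding members with a window, the number of CpG dinucleotides was lower where the change was larger. Members whose larger change of both clones was over 2 on the log2 scale numbered 8, with a median of 10 CpG and 2.64 CPM in wild type. From 1 to 2 there were 32 members with a median of 11 CpG and 4.86 CPM, from 0.5 to 1 there were 89 with 19 CpG and 30.3 CPM, and up to 0.5 there were 118 with 23 CpG and 41.9 CPM. Windows with under 10 CpG made up 50%, 43.8%, 20.2% and 9.32% of these classes. Level in wild type moves with both, and its part was not tested. The core of the RBPJ motif, TGGGAA on either strand, was found in 20.6% of those 247 windows. It was found in 20.8% of all 35116 RefSeq windows of that length. The GC-box core GGGCGG was found in 61.9% and 42.6%. These sets are unlike: the 247 hold 1 window per tested protein-coding gene, and the 35116 hold every window of every gene. Their median CpG counts were 20 and 11, so the shares do not set the region apart.

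Several members share their start region with a neighbour on the other strand. Of 16 tested head-to-head pairs with starts at most 500 bases apart, FBXO8 and CEP44, with 244 bases between their starts, both rose in clone 1 (0.51 and 0.67). In clone 2 they were at -0.31 and -0.67, and CEP44 was called. FBXW7 lies head to head with the non-coding DKFZP434I0714, which was at 0.40 in clone 1 (adjusted p = 0.381) and -0.24 in clone 2 (adjusted p = 0.626). Other pairs did not move alike: C4orf33 fell by 1.17 in clone 2 while its partner SCLT1 was at -0.33 (adjusted p = 0.268), and SEC31A fell by 0.62 in clone 1 while THAP9 was at -0.07 (adjusted p = 0.925). Over the pairs, 5 were both above 0 and 5 both below 0 in clone 1, and 1 and 9 in clone 2. The strand setting of the counts is not given in the sources used here. Exons of 31 of the 76 named members overlap those of another listed gene. On opposite strands, reads of FBXO8 and CEP44, PRIMPOL and CENPU, ABCE1 and OTUD4, RPS3A and SH3D19, and MGST2 and MAML3 may not be fully told apart. The same holds, among others, for CBR4 and PALLD, LRP2BP and SNX25, C4orf33 and SCLT1, CCNA2 and EXOSC9, and HHIP and HHIP-AS1. SEC31A overlaps THAP9 on the other strand and THAP9-AS1 on its own.

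Members without a protein-coding type numbered 187, of which 47 were pseudogenes and 111 had no type in the annotation used, and 77 were tested. In clone 1, 1 of the 77 was called, and it was higher. In clone 2, 5 were called, all of them lower. Of all 16921 tested genes, 13414 were protein-coding. In clone 1, 239 of all were called higher and 694 lower, of which 191 and 677 were protein-coding. In clone 2, 543 were called higher and 465 lower, of which 528 and 406 were protein-coding. Whether the 77 differ from other genes without a protein-coding type was not tested. Pseudogenes can hold reads of their parent genes, and their values are uncertain for that reason. Among untested members with few reads, DDIT4L had 34 reads in wild type, 1 in clone 1 (ratio 30.9, 95% interval 5.19 to 1257) and 3 in clone 2 (ratio 10.2, interval 3.22 to 52.1). DKK2, a Wnt antagonist, had 32 reads in wild type and 3 in clone 1 (ratio 9.7, interval 3.03 to 49.5), and TDO2, tryptophan dioxygenase, had 37 reads in clone 1 and 0 in clone 2, at least 12.2-fold lower. These intervals and floors cover counting error only. The genes were picked from the same counts for having few reads in 1 group. Their ratios may therefore be too large and are no test of a change.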

How the data were processed

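RNA of 3 wild-type, 3 clone 1 and 3 clone 2 libraries was sequenced, and the deposited values are raw read counts per gene in 2 tables that share the wild-type columns (identical in both for 3 of 3 libraries). The submitters' processing notes name STAR, Subread featureCounts, DESeq2 and the build GRCh38. The annotation release, strand setting and roles of these tools were not given in the sources used here. The gene length in the deposited tables was used for levels per kilobase. Gene types came from the reference annotation (GENCODE release 29 symbols) and promoter windows from RefSeq.

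Counts were joined by gene symbol. Genes passing filterByExpr (minimum count 10; 16921 genes) were fitted with edgeR 4.0.16 (R 4.3.3, quasi-likelihood, robust, TMM) in 3 groups of 3 libraries (residual degrees of freedom: 6), and p-values were adjusted by Benjamini-Hochberg over all tested genes, called under 0.05. Fold changes are log2 values ± SE, and levels are mean CPM ± SD over 3 libraries. The fit was tested on simulated counts. The members and role lists were chosen with earlier results of these data known. Named genes followed a rule: the members with the largest called changes per clone and between clones (at least 5 CPM in the higher group and no overlap), those called the same way in both clones, the highest per kilobase, up to 4 per role list by smallest adjusted p, VEGFC, MAML3, and the neighbours of both limits. Non-coding genes and genes of few reads outside it were named after their values were seen. Where a group had 0 reads, a bound was computed against a floor of 3 counts over the group.

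Replicate numbers come from the labels. Deviations of same-numbered wild-type and clone 2 libraries correlated at 0.541, 0.536 and 0.517, so values blocked on that number are given beside clone 2 results where it changed a call. Alternatives were RLE factors, no filter, DESeq2 1.42.0, the block, 6 libraries only, 5 Mb windows, GC content and length trends (mgcv 1.9.3) and each library left out.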

Additional observations from a re-analysis of the deposited data

Results flagged for a closer look

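Given here are the 41 named members that were called against wild type in at least 1 clone and also differed between the clones by edgeR's test of clone 2 against clone 1 (adjusted p from 4.83e-08 to 0.0311). Other named members passed the test between the clones without a call against wild type, among them HHIP, LRBA, HERC5, AGA and VEGFC, and are not listed. The values are log2 differences of clone 2 less clone 1, and the shared wild-type libraries cancel out of them.

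Before 155 Mb, 19 of the 41 were higher in clone 2: SHROOM3 1.23, SEPT11 0.84, FRAS1 0.77, HNRNPD 1.09, SEC31A 0.75, NKX6-1 1.23, PPP3CA 1.06, NFKB1 0.96, PAPSS1 0.84, ANK2 1.53, METTL14 0.56, SEC24D 0.74, NOCT 0.64, SETD7 0.75, TBC1D9 0.93, SMARCA5 0.98, OTUD4 0.66, SMAD1 0.96 and SH3D19 0.73. All 19 were called lower in clone 1 against wild type, which the choice of the list all but fixed. A listed member had to be called against wild type, and no member was called higher in clone 2. In the same stretch 10 were lower in clone 2: PRDM8 -1.32, FAM13A -0.56, UNC5C -1.28, LAMTOR3 -0.60, DNAJB14 -0.59, EGF -1.93, PLK4 -0.46, C4orf33 -1.29, MGST2 -0.91 and FBXW7 -1.20. NAA11 was also lower, and its fitted value of -11.09 depends on the prior count, since clone 2 had 0 reads.

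From 155 Mb to the end, the other 11 were all lower in clone 2: MARCH1 -2.73, ANXA10 -2.40, CBR4 -0.80, AADAT -1.15, FBXO8 -0.82, CEP44 -1.34, PRIMPOL -1.16, CENPU -1.01, LRP2BP -2.09, CYP4V2 -1.97 and TRIML2 -1.77. Among them ANXA10, LRP2BP, PRIMPOL, CEP44, CENPU, CBR4 and FBXO8 were called higher in clone 1 against wild type, and CYP4V2, TRIML2, LRP2BP, CEP44, MARCH1 and AADAT were called lower in clone 2. The choice of the list all but fixed the shared direction of these 11 as well. Beyond 155 Mb, 8 members were called higher in clone 1 and 1 lower (FSTL5, with no read in either clone). In clone 2, 12 were called lower and none higher. The boundary itself was set by the sign of the clone 1 medians.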

How the results depend on the processing

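The median log2 fold changes of the members against wild type kept their signs in both stretches and both clones under every alternative run. In clone 1, 93 members were called with the replicate block and 85 with the block and GC content and length trends removed. With 1 library left out, 6 to 53 were called. Of all tested genes these fits called 13.7%, 14.2% and 1.15% to 7.34%, against 5.51% in the main fit. The replicate numbers do not pair wild-type and clone 1 libraries: same-numbered deviations correlated at 0.489, 0.157 and -0.228. Over every member on log2(CPM + 0.5) the clone 1 medians were -0.13 before and 0.19 beyond 155 Mb. In clone 2, calls were 67 with DESeq2, 93 with the block and 21 with 6 libraries only. They were 133 with 6 libraries and the block, 75 with GC, length and the block, and 12 to 55 with 1 library left out. Of all tested genes, DESeq2 called 10.7%, 6 libraries only 2.61%, and 6 libraries with the block 27.1%. GC, length and the block called 22.1%, and fits without 1 library 1.34% to 8.96%, against 5.96% in the main fit. With the block alone, 9.03% of all were higher and 6.92% lower. The 75 were 24.3% of 309 tested members, close to the 22.1% of all genes in that fit. With GC and length trends removed the clone 2 medians were -0.19 over the region, -0.19 before and -0.20 beyond 155 Mb. With the block also, they were -0.20, -0.19 and -0.21. Over every member they were -0.24 over the region and -0.23 beyond 155 Mb.

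Between the clones the regional median was -0.29 with RLE factors, -0.29 with DESeq2, -0.32 without a filter (-0.19 before 155 Mb), -0.18 over every member (-0.34 beyond 155 Mb) and -0.36 to -0.23 with 1 library left out (-0.19 to -0.09 before 155 Mb). With GC and length trends removed it was -0.09, with the sign before 155 Mb turned to 0.02 and -0.42 beyond. With the block also, these were -0.10, 0.01 and -0.43. The cause was not tested.

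Named genes, JAG1 included, had 37 calls in clone 1, of which 6 held in all 9 fits without 1 library. For clone 2 this was 8 of its 26 calls, for the difference between both clones 38 of 54, and no call changed sign. With GC and length trends removed the clone 1 calls of FRAS1 (adjusted p = 0.083), SEC31A (0.0612), HPSE (0.0503), CBR4 (0.0527) and FBXO8 (0.0502) and the clone 2 call of CEP44 (0.0598) were lost. That of GAB1 was lost with RLE factors (0.0502) and without a filter (0.0626), and that of CBR4 without a filter (0.0563). With 6 libraries only, 10 of the 26 clone 2 calls were lost: LRP2BP (0.0869), PRDM8 (0.0702), CEP44 (0.0875), FHDC1 (0.0756), BDH2 (0.0606), HPSE (0.0828), FAM13A (0.0504), AADAT (0.0662), LAMTOR3 (0.0537) and BTC (0.0938). The block changed no other clone 2 call of a named gene than those given beside the results. Between the clones, calls lost with GC and length trends removed were RPS3A (0.103), PLK4 (0.109), CISD2 (0.723), CTSO (0.0613), LAMTOR3 (0.0904) and MAML3 (0.11). Those of ANXA5 and MAML3 were lost with RLE factors (0.0533 and 0.0575), without a filter (0.0698 and 0.135) and with 6 libraries only (0.054 and 0.0701).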
